A study of Mus musculus with 8 samples.

Results

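Immediate early genes are transcribed within minutes of a stimulus, before any new protein is made, and most of them encode transcription factors. Fos and Jun proteins pair through their leucine zippers into the AP-1 complex, EGR1 and KLF6 are zinc finger factors, and growth factor signalling through ERK, stress kinases and cAMP all converge on the promoters of these genes. In the gut epithelium they are known to respond to growth factors, to injury and to the isolation of the cells themselves. Here 9 of the 32285 genes in the count tables, selected by symbol, are described: Fos, Fosb, Jun, Junb, Jund, Atf3, Egr1, Ier2 and Klf6. All 9 passed the filter on low counts in the epithelial comparison.

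The counts came from single-cell RNA-Seq of 8 libraries, 2 for each of 4 groups, all from male C57BL/6 mice of 6 to 12 weeks without a transgene or treatment named in the labels. The groups were the stromal cells of colon assembloids, the epithelial cells of colon assembloids, the epithelial cells of colon organoids grown without stroma, and the epithelial cells of colon tissue. Assembloids are organoids embedded together with primary stromal cells that had been cultured beforehand, and they were kept without added Wnt surrogate, CHIR99021, R-spondin and noggin, whereas the organoids received all of these. The number of animals behind each epithelial library is not given in the sources used here, so the p-values measure the spread between these libraries only.

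The preparation differed between the groups in the same way as the groups themselves. Both compartments of the assembloids were released with Liberase TL and DNase I followed by TrypLE, the crypts of the tissue with EDTA and DTT followed by TrypLE, and the organoids with TrypLE alone. By the paper each of these incubations was warm. They were longest for the assembloids and shortest for the organoids, and a collection medium with serum is named for the assembloids only. For these genes the digestion and the culture therefore cannot be told apart. In the same way the stromal files were written by Cell Ranger 6.0.1 and the epithelial files by Cell Ranger 7.1.0, so the software and the compartment cannot be told apart. The paper calls the stromal cells EpCAM-negative, and how they were separated from the epithelium is not given. A separation step could likewise not be told apart from the compartment.

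The genes lie on 7 chromosomes of GRCm38 (mm10, the build of the files). By the GENCODE annotation, Jun (ENSMUSG00000052684, chr4:95049034-95052222), Junb (ENSMUSG00000052837, chr8:84974484-84978718), Jund (ENSMUSG00000071076, chr8:70698949-70700616) and Ier2 (ENSMUSG00000053560, chr8:84661331-84662852) consist of 1 exon each. Fos (ENSMUSG00000021250, chr12:85473890-85477273), Fosb (ENSMUSG00000003545, chr7:19302696-19310051), Atf3 (ENSMUSG00000026628, chr1:191170296-191218039) and Klf6 (ENSMUSG00000000078, chr13:5861482-5870394) have 4 exons, and Egr1 (ENSMUSG00000038418, chr18:34859823-34864984) has 2.

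Barcodes were kept where 500 genes or more were detected and mitochondrial genes held no more than 10% of the UMIs (unique molecular identifiers, the counted molecules), which left 4310 to 29410 cells per library. Cells with markers of other types were then left out, 3905 and 881 from the assembloid epithelium, 706 and 72 from the stroma and at most 7 from any other library, so that 4303 to 25505 cells with 36929108 to 187583982 UMIs entered the sums. The tissue libraries stood apart, since 38.66% and 25.39% of their barcodes passed, with a median mitochondrial share of 13.32% and 16.18% over all barcodes. Before that removal the epithelial markers Epcam, Cdh1, Krt8, Krt18, Krt19 and Cldn7 summed to 5474 to 10607 CPM (UMIs of a gene per 1000000 UMIs of the library) in the epithelial libraries and to 460 and 96.8 in the stromal ones, where the fibroblast markers reached 6528 and 10565. In the assembloid epithelium the fibroblast markers were at 595 and 691 CPM and the immune markers at 251 and 546 before it, against at most 0.05 and 20.5 in organoids and tissue. After the removal, which used these same markers, the assembloid epithelium still held 132 and 26.2 CPM of the fibroblast and 69.3 and 34.4 of the immune markers. Libraries shared 13 to 141 cell barcodes per pair, at most 0.98% of the smaller library.

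Promoter sequences from RefSeq (GRCm38.p6) were searched for 7 of the 9 genes. Those of Egr1 and Ier2 were not part of the search. The 120 bases before the listed start are shown for the members that moved most between the groups, because immediate early promoters carry short elements for CREB/ATF and AP-1 factors close to the start. Capitals mark the cAMP response element core (TGACG, or CGTCA on the other strand), the variant TGACATCA known from the Jun promoter, and the TATA box TATAAA.
Fos, chr12:85473770-85473889, plus strand: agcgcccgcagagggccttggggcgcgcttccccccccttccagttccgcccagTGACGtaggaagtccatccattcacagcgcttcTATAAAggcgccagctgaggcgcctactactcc
Fosb, chr7:19310046-19310165, minus strand: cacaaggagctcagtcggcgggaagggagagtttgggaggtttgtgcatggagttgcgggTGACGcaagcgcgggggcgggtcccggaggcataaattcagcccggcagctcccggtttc
Jun, chr4:95052223-95052342, minus strand: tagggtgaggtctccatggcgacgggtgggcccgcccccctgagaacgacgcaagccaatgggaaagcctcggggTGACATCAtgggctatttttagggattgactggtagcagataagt
Atf3, chr1:191183334-191183453, minus strand: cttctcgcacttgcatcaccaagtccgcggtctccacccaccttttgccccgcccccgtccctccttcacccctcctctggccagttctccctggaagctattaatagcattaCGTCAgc
Klf6, chr13:5861369-5861488, plus strand: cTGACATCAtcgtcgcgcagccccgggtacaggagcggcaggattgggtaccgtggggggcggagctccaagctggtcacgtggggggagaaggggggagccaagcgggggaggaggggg
The core began 66 bases before the start in Fos, 60 in Fosb and 7 in Atf3, and the variant 45 bases before it in Jun and 119 in Klf6. Searched on both strands in the 250 bases before every listed mouse start, TGACG was present in 17.77% of 32851 promoters, TGACATCA in 2.93% and TATAAA in 12.37%. The full element TGACGTCA (1.55% of promoters) was not in the 250 bases of any of the 7 genes. Nor was the AP-1 site TGACTCA (4.46%) or the CArG box, the core of serum response elements (1.47%). These matches describe the letters of the windows and were not measured as bound sites.

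The Fos family members, which can enter AP-1 only as partners of Jun proteins, were highest in tissue epithelium and lowest in organoids. Fos stood at 725 and 749 CPM in the tissue libraries (replicates 1 and 2), at 244 and 626 in the assembloid stroma, at 225 and 318 in the assembloid epithelium and at 71.8 and 73.9 in the organoids. Fosb stood at 221 and 309.7 CPM in tissue, at 53.2 and 97.3 in the stroma, at 23.6 and 46.3 in the assembloid epithelium and at 5.86 and 10.9 in organoids. The 3 epithelial groups did not overlap for either gene, while the stroma and the assembloid epithelium overlapped for Fos and were separate for Fosb. For these and the later genes, the share of all genes without overlap is not given, so such separation is a description only.

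Jun, the core Jun subunit and a target of JNK, had the same order of groups as Fos. Its level was 825 and 932 CPM in tissue, 326 and 674 in the stroma, 258 and 326 in the assembloid epithelium and 75.4 and 63.3 in the organoids, so that the lowest stromal and the highest assembloid epithelial library were equal to within 1 CPM. Junb, which often opposes Jun, was instead highest in the stroma at 451 and 662 CPM, followed by tissue at 232 and 288, assembloid epithelium at 163 and 192 and organoids at 92.3 and 83.4, with no overlap between neighbours. Jund, the member that most cells express constantly, was at 561 and 694 CPM in tissue, 244 and 384 in the assembloid epithelium, 243 and 382 in the stroma and 381 and 208 in the organoids. For Jund the tissue stood apart and the other 3 groups overlapped.

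Atf3, a bZIP factor induced by stress and injury that mostly represses transcription, was high in the epithelium of tissue and assembloids and low in the other groups. It reached 331 and 400.3 CPM in tissue and 277 and 250.4 in the assembloid epithelium, against 37.5 and 50.9 in organoids and 26.1 and 53.8 in the stroma, where the last pair overlapped. Klf6, a zinc finger factor linked to growth control and wound responses, was at 262 and 390.4 CPM in the assembloid epithelium and 226 and 285 in tissue, which overlapped, and at 45.9 and 55.5 in organoids and 46.6 and 62.1 in the stroma. These 2 genes thus had 2 high and 2 low groups.

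Egr1, the zinc finger factor induced by ERK signalling through serum response elements, was at 268 and 583 CPM in the stroma and 253 and 302 in tissue, which overlapped, then at 97.8 and 129 in the assembloid epithelium and 51.2 and 64.5 in the organoids. Ier2, a small nuclear protein of the immediate early response, was at 293 and 397 CPM in tissue, 185 and 316 in the stroma, 117 and 72.2 in organoids and 66.3 and 107 in the assembloid epithelium. For Ier2 the tissue and the stroma overlapped, as did the organoids and the assembloid epithelium.

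**Figure D1:**
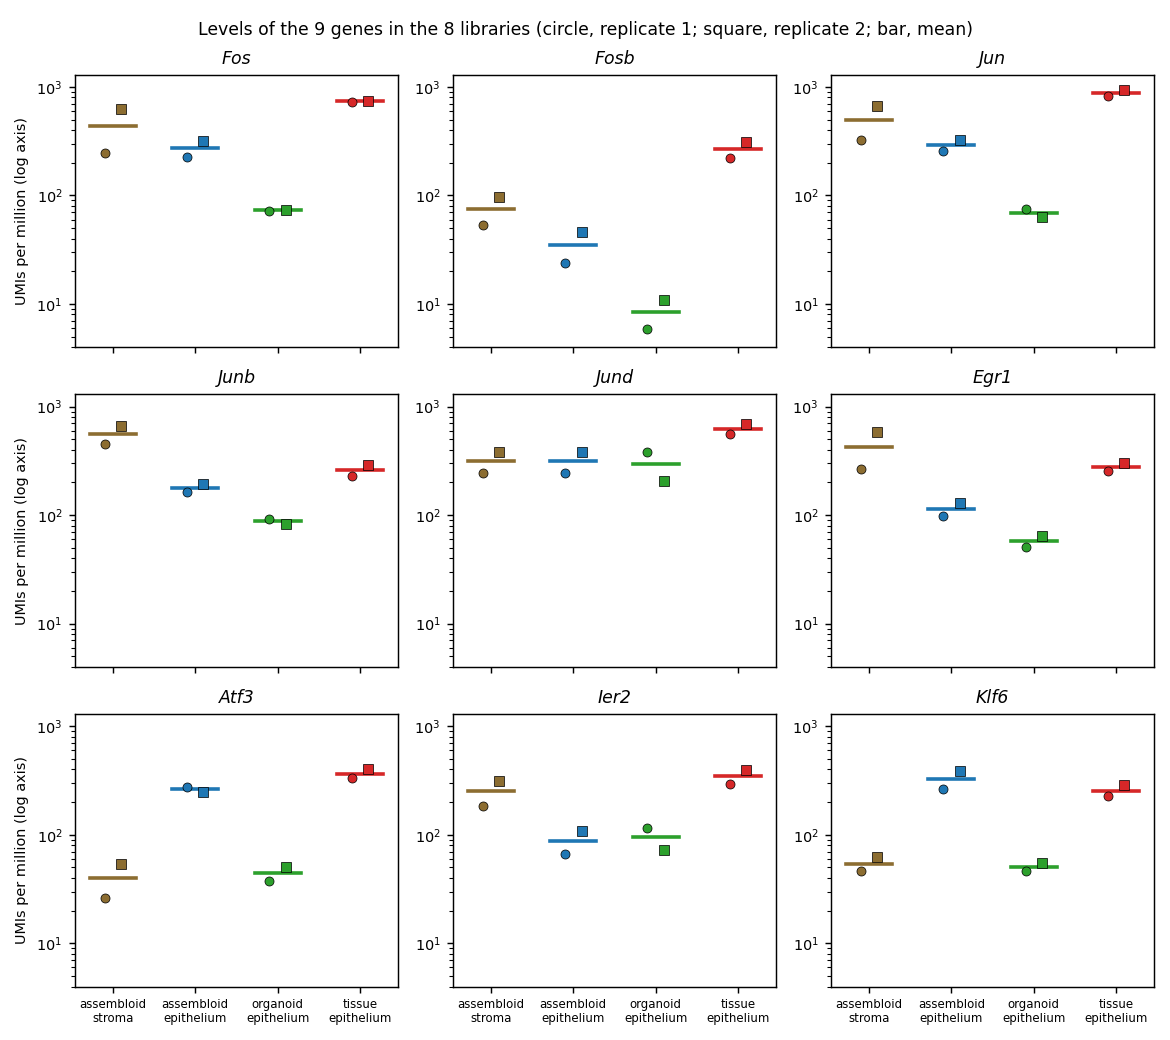
Level of each of the 9 genes in the 8 libraries, in CPM on a log axis; circles are replicate 1, squares replicate 2 and bars the mean of the 2 libraries of a group. The organoids are lowest for Fos, Fosb, Jun, Junb and Egr1, and Atf3 and Klf6 are high in the assembloid and tissue epithelium and low in the organoids and the stroma.

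Summed over the 9 genes, the level was 3666 and 4356 CPM in tissue, 1843 and 3456 in the stroma, 1617 and 2143 in the assembloid epithelium and 878 and 683 in the organoids. The 2 stromal libraries differed most. All 9 genes were higher in stromal replicate 2, by 1.33 to 2.57 times, and 9 in tissue replicate 2, by 1.03 to 1.4 times, whereas 8 were higher in replicate 2 of the assembloid epithelium and 5 in that of the organoids.

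The comparison of assembloid with tissue epithelium asks how far the cultured epithelium with stroma resembles that of the colon. In it 5 of the 9 genes were lower in assembloids (Fosb, Ier2, Jun, Fos and Egr1), 1 was higher (Klf6) and 3 did not pass (Jund, Junb and Atf3). Of 19185 genes tested by edgeR's quasi-likelihood test at an adjusted p of 0.05, 49.7% were called, 26.4% as higher and 23.3% as lower. Fosb differed most, by a log2 fold change of −2.57 ± 0.34 (SE, adjusted p = 0.00056). Ier2 was lower by −1.63 ± 0.37 (adjusted p = 0.00708), Jun by −1.21 ± 0.28 (adjusted p = 0.00753), Fos by −1.07 ± 0.25 (adjusted p = 0.00794) and Egr1 by −0.92 ± 0.22 (adjusted p = 0.00859). The values that did not pass were −0.63 ± 0.39 for Jund (adjusted p = 0.212), −0.17 ± 0.25 for Junb (adjusted p = 0.595) and −0.08 ± 0.24 for Atf3 (adjusted p = 0.807).

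The higher call of Klf6 (0.72 ± 0.25, adjusted p = 0.0378) depended on the scaling of the libraries. The TMM factors used in the test were 0.821 and 0.948 for the assembloid and 1.159 and 1.147 for the tissue libraries, and with plain library totals, added after the data were seen, Klf6 stood at 0.35 (adjusted p = 0.27) and Jund was called lower (−1.0, adjusted p = 0.0211). Under library totals the median of all genes moved from 0.0267 to −0.3586 and the calls from 5063 higher and 4464 lower to 3784 and 6259. Fos, Fosb, Jun, Egr1 and Ier2 were lower under both scalings (−1.44, −2.93, −1.59, −1.29 and −1.99 on library totals). With a single tissue library the calls were fewer. Without tissue replicate 2 only Fosb was called of the 9 (Fos −1.05, adjusted p = 0.0778; Jun −1.12, adjusted p = 0.0742), without tissue replicate 1 Fos and Klf6 lost their calls (Fos −1.12, adjusted p = 0.0653), without assembloid replicate 1 Fos, Jun and Egr1 did (adjusted p = 0.0704, 0.0503 and 0.0727), and without assembloid replicate 2 Klf6 did (0.52, adjusted p = 0.192).

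Relative to tissue, 8 of the 9 genes were lower in organoids, all but Jund, where 47.1% of all genes were called, 24.2% as higher and 22.9% as lower. Fosb was lower by −4.80 ± 0.38 (adjusted p = 3.84e-05), Jun by −3.41 ± 0.30 (adjusted p = 6.73e-05), Fos by −3.10 ± 0.27 (adjusted p = 5.89e-05) and Atf3 by −2.84 ± 0.26 (adjusted p = 7.79e-05). Klf6 (−2.11), Egr1 (−2.04), Ier2 (−1.59) and Junb (−1.32) were lower with adjusted p of 0.000315, 0.000196, 0.00777 and 0.0032. Jund had −0.80 ± 0.40 (adjusted p = 0.127), and it passed on library totals (−1.09, adjusted p = 0.0161), with at most 5% mitochondrial UMIs (−0.85, adjusted p = 0.0474) and without organoid replicate 1 (−1.54, adjusted p = 0.0117). Without tissue replicate 2 Junb (−1.13, adjusted p = 0.053) and Ier2 (−1.33, adjusted p = 0.0636) lost their calls.

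Organoids were also compared with the epithelium of assembloids, that is, cultures without and with stroma whose media differed. Here 7 genes were lower in organoids where 52.9% of all genes were called, 24.4% as higher and 28.5% as lower. Klf6 (−2.83 ± 0.26, adjusted p = 0.000129) and Atf3 (−2.76 ± 0.26, adjusted p = 0.00013) differed most, followed by Fosb (−2.23), Jun (−2.20) and Fos (−2.03), and Junb (−1.15) and Egr1 (−1.12) least. Ier2 (0.03 ± 0.36, adjusted p = 0.944) and Jund (−0.17 ± 0.39, adjusted p = 0.734) did not pass. The number called was 7 whichever epithelial library was left out, while 7701 to 9786 of all genes were called. The 3 epithelial comparisons share libraries, so their values are set side by side and are not independent of each other.

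**Figure D2:**
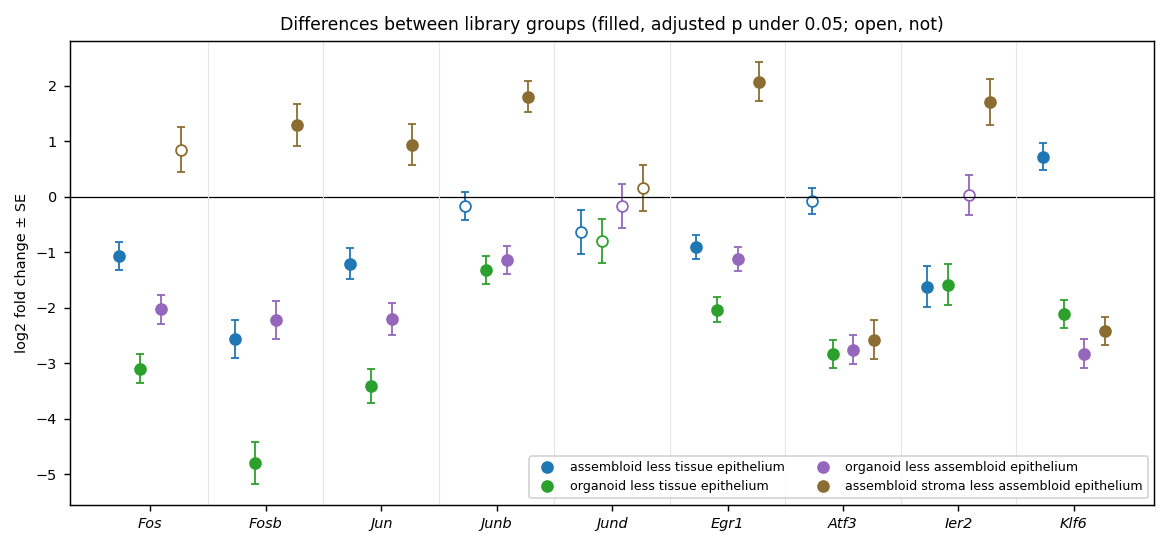
Log2 fold changes with their SE for the 9 genes in the 4 comparisons of library groups; filled points have an edgeR adjusted p under 0.05 and open points do not. The organoid less tissue values are negative for all 9 genes, and Atf3 and Klf6 are the genes lower in the assembloid stroma than in its epithelium.

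Within assembloids, the stroma was compared with the epithelium. Junb, Egr1, Ier2, Fosb and Jun were higher in the stroma, Atf3 and Klf6 were lower, and Fos and Jund did not pass, where 72.9% of 20566 genes were called (38.6% higher, 34.3% lower). Egr1 differed by 2.07 ± 0.36 (adjusted p = 0.000915), Junb by 1.80 ± 0.28 (adjusted p = 0.000572), Ier2 by 1.70 ± 0.41 (adjusted p = 0.0055) and Fosb by 1.29 ± 0.38 (adjusted p = 0.015). Atf3 (−2.58 ± 0.35, adjusted p = 0.000259) and Klf6 (−2.42 ± 0.25, adjusted p = 6.15e-05) went the other way. Fos had 0.85 ± 0.40 (adjusted p = 0.0886), and Jund 0.16 ± 0.41 (adjusted p = 0.74).

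The median of all genes in this comparison was 0.1418 under TMM, −0.1279 under DESeq2's size factors and −0.0018 on library totals, and the values of the members are relative to these. Jun (0.94 ± 0.37, adjusted p = 0.0457) did not pass under DESeq2 (0.66, adjusted p = 0.0909) or on library totals (0.78, adjusted p = 0.0513), and without stromal replicate 2 it was at 0.32 (adjusted p = 0.428). Fosb was at 0.79 (adjusted p = 0.115) without stromal replicate 2, at 0.95 (adjusted p = 0.0892) without assembloid epithelial replicate 1 and at 1.01 (adjusted p = 0.0573) without organoid replicate 1. Without stromal replicate 1 Fos passed (1.39, adjusted p = 0.00444).

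Bulk differences can come from fewer cells of a type or from fewer molecules per cell, and library sums cannot tell these apart. Cells were therefore gated by marker genes that include none of the 9, and the groups compared within a class. Most kept cells met no gate, 83.8% and 74.8% in the assembloid epithelium, 68.6% and 65.5% in tissue and 55.4% and 61.5% in organoids. In the stroma it was 50.8% and 58.3%. Ungated tissue cells had a median of 1147 and 1987 UMIs, against 16281 and 13042 in cycling tissue cells. In organoids the median of ungated cells was 31301 UMIs against 42804 in cycling cells in replicate 1, and 1385 against 15223 in replicate 2. The results by class thus describe a minority of the cells, in tissue and in organoid replicate 2 the far deeper ones. In cycling cells (73 to 2928 per library, defined by Mki67, Top2a and related mitotic genes), Fos was at 744 and 848 CPM in tissue, 199 and 253 in assembloids and 65.7 and 66.3 in organoids. Jun in the same cells was at 965 and 1191 CPM in tissue, 286 and 321 in assembloids and 67.1 and 54.6 in organoids. The groups did not overlap for either gene.

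In these cycling cells Fosb (−2.72), Ier2 (−1.63), Jun (−1.34), Fos (−1.34) and Egr1 (−1.17) were lower in assembloids than in tissue, where 37.7% of all genes were called (15.2% lower), the same 5 as in the library sums. Klf6 had 0.51 (adjusted p = 0.0741), Atf3 −0.54 (adjusted p = 0.11), Jund −0.41 and Junb 0.29. On library totals Atf3 (−1.05, adjusted p = 0.0016) and Jund (−0.87, adjusted p = 0.013) were called lower, Atf3 also without assembloid replicate 1 (−0.85, adjusted p = 0.0211), and under DESeq2 Klf6 was called higher (0.53, adjusted p = 0.0216). Between organoids and tissue 8 of the 9 were lower in cycling cells (36.0% of all genes called, 16.2% lower), from −5.26 for Fosb to −1.03 for Junb, and Jund did not pass (−0.33, adjusted p = 0.425). Jund was called lower on library totals (−0.81, adjusted p = 0.0226) and without organoid replicate 1 (−0.87, adjusted p = 0.0421). Junb lost its call without organoid replicate 2 (−0.82, adjusted p = 0.0578) or tissue replicate 2 (−0.66, adjusted p = 0.145). Between organoids and assembloids 7 were lower (46.7% of all genes called, 26.4% lower), from −2.58 for Atf3 to −1.24 for Egr1, and Jund (0.08) and Ier2 (−0.07) did not pass. In stem-like cells, gated by Lgr5, Smoc2, Ascl2 and other crypt base genes and frequent enough in organoids and tissue only, all 9 were lower in organoids (31.4% of all genes called, 17.0% lower), from −5.10 for Fosb to −0.99 for Jund (adjusted p = 0.0356). Of 13 heat shock genes 0 were higher and 8 lower there (median −2.193 against 0.017 for all genes), and their part was not tested. The stem-like call of Jund was lost without either tissue library (adjusted p = 0.362 and 0.48) or without organoid replicate 2 (−0.46, adjusted p = 0.0627), and Junb (adjusted p = 0.0607) and Ier2 (adjusted p = 0.0924) lost theirs without tissue replicate 2.

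The differentiated classes were present in assembloids and tissue. In colonocyte-like cells (Krt20, Car1, Aqp8 and other surface genes) Fosb (−2.52), Ier2 (−1.09) and Fos (−0.64) were lower in assembloids, and Atf3 (1.15, adjusted p = 0.00623) and Klf6 (0.74, adjusted p = 0.00982) were higher, with 52.1% of all genes called (26.6% higher, 25.5% lower). Of 13 heat shock genes 11 were higher and 0 lower there (median 1.075 against −0.03 for all genes), and their part was not tested. Jund (−0.55), Jun (−0.49), Egr1 (−0.11) and Junb (0.23) did not pass. Jun and Jund were called lower without the filter on low counts (adjusted p = 0.0204 and 0.00916) and with the replicate block (adjusted p = 0.0242 and 0.00533). Atf3 was at 394 and 294 CPM in the assembloid and 169 and 277 in the tissue colonocyte-like cells, so the libraries did not overlap. On library totals Atf3 remained called (0.63, adjusted p = 0.047) and Klf6 did not (0.23, adjusted p = 0.33), while Jun (−1.0) and Jund (−1.05) became lower, and without tissue replicate 1 neither Atf3 (0.83, adjusted p = 0.0691) nor Klf6 (0.54, adjusted p = 0.193) passed. Fos lost its call without either tissue library (adjusted p = 0.065 and 0.215), and Ier2 without tissue replicate 2 (−0.74, adjusted p = 0.0988). With the gate limits doubled neither Fos (adjusted p = 0.0735) nor Ier2 (adjusted p = 0.0795) passed, and with at most 5% mitochondrial UMIs Fos did not (adjusted p = 0.0822).

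In goblet-like cells (Muc2, Tff3, Clca1 and other mucus genes), Klf6 differed most upwards. It was at 246 and 346 CPM in assembloids and 157 and 185 in tissue, a log2 fold change of 1.36 ± 0.18 (adjusted p = 0.000538) with 47.5% of all genes called (25.1% higher, 22.3% lower), and 0.79 (adjusted p = 0.0112) on library totals. Atf3 (0.80, adjusted p = 0.00683) and Junb (0.69, adjusted p = 0.0141) were called higher under TMM and not on library totals (0.22 and 0.11), nor without tissue replicate 1 (adjusted p = 0.106 and 0.26). Fosb (−1.96), Ier2 (−1.16), Jun (−1.02) and Egr1 (−0.52) were lower under both scalings. Fos (−0.21, adjusted p = 0.36) and Jund (−0.0023, adjusted p = 0.995) did not pass. Fos was called lower on library totals (−0.77, adjusted p = 0.0115) and without assembloid replicate 2 (−0.44, adjusted p = 0.0396), as was Jund in the latter (−0.45, adjusted p = 0.0398). Egr1 lost its call without either tissue library (adjusted p = 0.138 and 0.189) and with doubled gate limits (adjusted p = 0.161).

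Classes of the same library went through the same digestion, but whether they responded to it alike was not tested. The differences of these contrasts between groups also compare different digestions. Of 13 heat shock genes part were called in these contrasts. Against cycling cells none was called higher and 9 lower in colonocyte-like cells of tissue (all genes 22.3% and 23.6%) and 3 and 5 in those of assembloids (22.2% and 33.3%). In goblet-like cells it was 2 and 2 in tissue (11.4% and 12.3%) and 2 and 5 in assembloids (15.0% and 25.2%). In stem-like cells it was 1 and 11 in organoids (16.5% and 23.3%) and 7 and 3 in tissue (6.25% and 16.7%). In the differences between groups 5 heat shock genes were called higher and none lower for colonocyte-like cells (median 0.829 against −0.146 for all genes, of which 5.47% and 8.16% were called). It was 1 and 1 for goblet-like (3.38% and 4.72%) and 0 and 7 for stem-like cells (1.64% and 0.502%). Their part in the contrasts of the 9 genes was not tested. The median of all genes depended on the scaling, at −0.2605 and −0.0562 under TMM and −0.7015 and −0.5301 on library totals for colonocyte-like less cycling cells of assembloids and tissue, −0.5225 and −0.2613 on library totals for goblet-like cells, and 0.4359 and 0.2032 for stem-like cells of organoids and tissue. In tissue, colonocyte-like cells had less Fosb (−0.85), Jun (−0.58), Atf3 (−0.58) and Egr1 (−0.46) and more Jund (1.0) than cycling cells, all under TMM and on library totals, where 45.9% of all genes were called (22.3% higher, 23.6% lower). Fos (0.22) and Ier2 (−0.22) did not pass. Ier2 was called lower on library totals (−0.71, adjusted p = 8.35e-05) and Fos higher without assembloid replicate 1 or organoid replicate 1 (adjusted p = 0.0453 and 0.0486). Junb (0.46) and Klf6 (0.58) were higher under TMM and not on library totals (−0.03 and 0.09). Without tissue replicate 1 Fosb (−0.55, adjusted p = 0.0761), Jun (−0.33, adjusted p = 0.384), Atf3 (−0.44, adjusted p = 0.174), Egr1 (−0.14, adjusted p = 0.777) and Junb (0.42, adjusted p = 0.194) lost their calls, and without tissue replicate 2 Klf6 did (0.58, adjusted p = 0.061).

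In assembloids the same contrast gave more Atf3 (1.05), Fos (0.82), Jund (0.77) and Klf6 (0.75) and less Fosb (−0.70) in colonocyte-like cells under both scalings, where 55.6% of all genes were called (22.2% higher, 33.3% lower). Jun (0.22) and Ier2 (0.20) did not pass. Both were called higher with at most 5% mitochondrial UMIs (0.44 and 0.43, adjusted p = 0.0158 and 0.0191) and without assembloid replicate 1 (0.42 and 0.61, adjusted p = 0.037 and 0.00339), and Ier2 under DESeq2 (adjusted p = 0.0393). Egr1 (0.56) and Junb (0.32) were higher under TMM and not on library totals, and Junb not without assembloid replicate 2 (adjusted p = 0.163), nor Egr1 with doubled gate limits (0.05, adjusted p = 0.859). Atf3 rose from 248 and 199 CPM in cycling to 394 and 294 in colonocyte-like assembloid cells and fell from 374 and 556 to 169 and 277 in tissue. The difference of the contrast between assembloids and tissue was called for Atf3 (1.63 ± 0.19, adjusted p = 9.31e-06), Egr1 (1.02 ± 0.23, adjusted p = 0.0044), Jun (0.79 ± 0.23, adjusted p = 0.0232) and Fos (0.61 ± 0.19, adjusted p = 0.0393), where 13.6% of all genes were called (5.47% higher, 8.16% lower). The other 5 lay between −0.23 for Jund and 0.42 for Ier2, which passed under DESeq2 (0.56, adjusted p = 0.0476) and without assembloid replicate 1 (0.79, adjusted p = 0.00891). The call of Atf3 held whichever of the 6 epithelial libraries was left out, whereas Fos, Jun and Egr1 lost theirs without tissue replicate 1 (adjusted p = 0.376, 0.32 and 0.125), Fos and Jun without tissue replicate 2 (adjusted p = 0.269 and 0.0982) and Fos without assembloid replicate 2 (adjusted p = 0.204).

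Goblet-like cells were compared with cycling cells in the same way. In assembloids Fos (0.83), Atf3 (0.66), Jund (0.62), Junb (0.49), Egr1 (0.44) and Klf6 (0.40) were called higher than in cycling cells (40.2% of all genes called, 15.0% higher and 25.2% lower), of which Fos, Atf3 and Jund held on library totals. Ier2 (0.18), Fosb (0.16) and Jun (−0.008) did not pass, Fosb passing with at most 5% mitochondrial UMIs (0.49, adjusted p = 0.0467). With the gate limits doubled Fos (0.55, adjusted p = 0.0574) and Atf3 (0.42, adjusted p = 0.179) did not pass and Jun was called lower (−0.78, adjusted p = 0.0261). Egr1 (−0.034, adjusted p = 0.932) and Klf6 (−0.078, adjusted p = 0.818) then lost their calls and changed sign, as did the sign of Fosb (−0.59, adjusted p = 0.176). Jund (0.39, adjusted p = 0.0996), Egr1 (adjusted p = 0.33) and Klf6 (adjusted p = 0.343) lost their calls without assembloid replicate 2. In tissue Atf3 (−0.59), Fosb (−0.45) and Klf6 (−0.36, adjusted p = 0.0487) were lower (23.7% of all genes called, 11.4% higher and 12.3% lower) and the other 6 lay between −0.23 for Jun and 0.34 for Jund. Of these Fos (−0.48, adjusted p = 0.00351), Jun (−0.51, adjusted p = 0.0104) and Ier2 (−0.43, adjusted p = 0.0118) were called lower on library totals. Jund was called higher under DESeq2 (0.37, adjusted p = 0.00215), without the filter on low counts, with classes of at least 20 cells and without each assembloid or organoid library in turn. Of the calls, Fosb lost its own without either tissue library (adjusted p = 0.306 and 0.284), Klf6 likewise (adjusted p = 0.456 and 0.514), and Atf3 without tissue replicate 2 (adjusted p = 0.291). The difference was called for Atf3 (1.25 ± 0.19, adjusted p = 0.00031), Fos (1.02 ± 0.19, adjusted p = 0.00212) and Klf6 (0.75 ± 0.18, adjusted p = 0.0115), where 8.10% of all genes were called (3.38% higher, 4.72% lower). The other 6 lay between 0.22 for Jun and 0.61 for Fosb, which passed without assembloid replicate 1 (0.76, adjusted p = 0.0407). Atf3 again passed whichever of the 6 libraries was left out, Fos did not without tissue replicate 2 (0.97, adjusted p = 0.0942), and Klf6 did not without either tissue library (adjusted p = 0.135 and 0.219) or without assembloid replicate 2 (adjusted p = 0.0924).

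Stem-like cells of organoids had more Egr1 (0.79, adjusted p = 0.000471), Fosb (0.74) and Jun (0.55) and less Jund (−0.90) than cycling cells of the same libraries under both scalings (39.8% of all genes called, 16.5% higher and 23.3% lower), and Junb (−0.33) was lower under TMM but not on library totals or under DESeq2 (adjusted p = 0.0563). Atf3 (0.25), Fos (0.14), Klf6 (−0.15) and Ier2 (−0.19) did not pass. On library totals Atf3 (0.68, adjusted p = 0.000298) and Fos (0.57, adjusted p = 0.00066) were called higher. The stem-like cells had a higher median mitochondrial share than the cycling cells, 3.12% against 2.02% and 7.24% against 3.02% in the 2 organoid libraries and 8.21% against 5.69% and 8.23% against 6.97% in those of tissue. Among organoid cells with at most 5% mitochondrial UMIs the calls of Egr1 (1.01), Jun (0.77), Fosb (0.59, adjusted p = 0.0476) and Jund (−0.65) held, that of Junb did not (adjusted p = 0.326) and Atf3 was called higher (0.47, adjusted p = 0.0275). Without organoid replicate 1 Jun was at 0.13 (adjusted p = 0.699), and without organoid replicate 2 Fosb was at 0.59 (adjusted p = 0.14). In tissue Fosb (0.39, adjusted p = 0.0414) was higher and Jund (−0.43, adjusted p = 0.0221) lower (22.9% of all genes called, 6.25% higher and 16.7% lower) and the other 7 lay between −0.29 for Ier2 and 0.32 for Atf3, the call of Jund not on library totals (−0.12), and both calls were lost without either tissue library. On library totals Atf3 (0.63), Jun (0.56), Klf6 (0.46) and Junb (0.44) were called higher there, Atf3 also under DESeq2 (0.46, adjusted p = 0.00435). The difference between organoids and tissue was called by edgeR for none of the 9, where 2.14% of all genes were called (1.64% higher, 0.502% lower). By edgeR 3 of the 9 had an unadjusted p under 0.05, but the share of all genes under that limit was not counted. Egr1 came closest to a call (0.81, adjusted p = 0.0736), the others lay between −0.47 for Jund and 0.36 for Fos, and DESeq2 called 2 (Junb and Jund). Egr1 passed on library totals (0.93, adjusted p = 0.0262) and without either assembloid library (adjusted p = 0.02 and 0.00205).

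**Figure D3:**
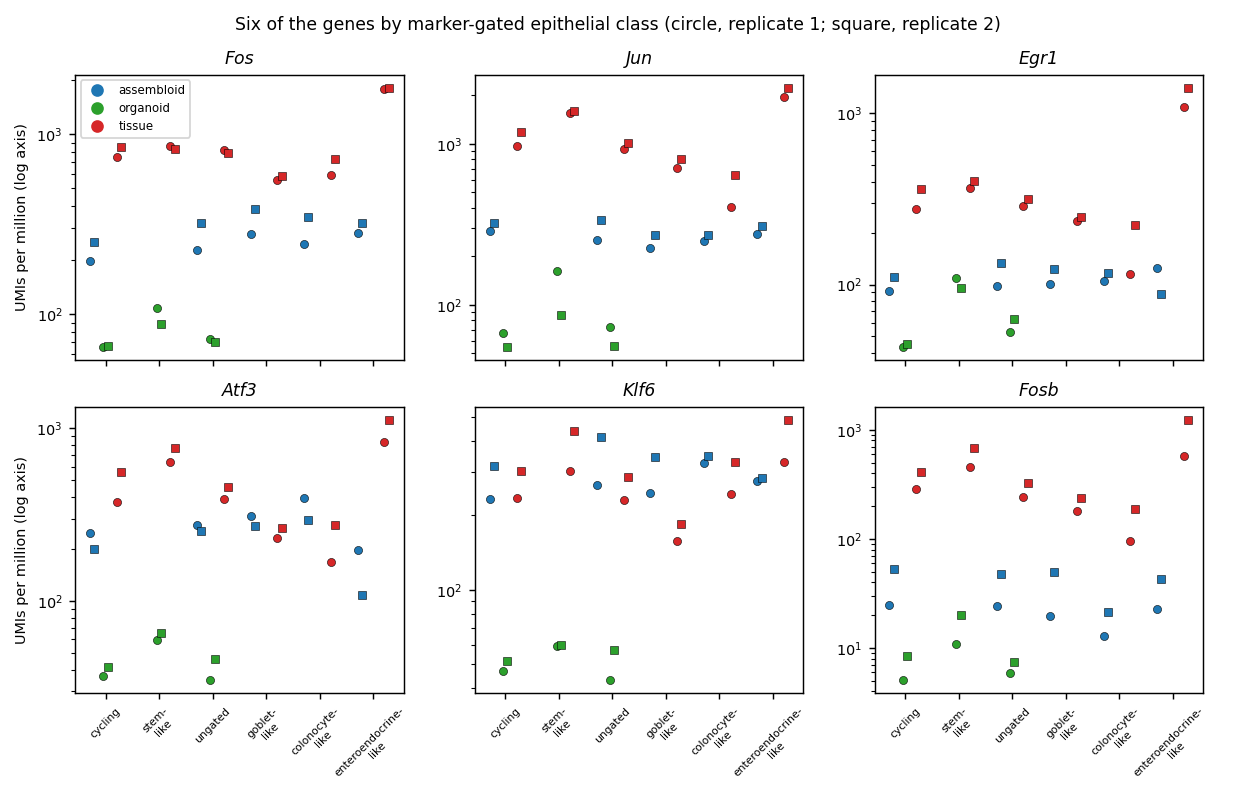
Levels of Fos, Jun, Egr1, Atf3, Klf6 and Fosb by marker-gated epithelial class, in CPM on log axes; colours are the groups, circles replicate 1 and squares replicate 2, for classes with at least 40 cells in both libraries. Tissue enteroendocrine-like cells are highest for Fos, Jun, Egr1, Atf3 and Fosb, and the assembloid enteroendocrine-like cells are near the other assembloid classes.

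Enteroendocrine-like cells (Chga, Chgb, Pyy and other hormone genes) had the highest level in CPM of each of the 9 genes among the tissue classes, in both libraries. They numbered 45 and 76 in tissue and 73 and 40 in the assembloids and enter only when classes of at least 20 cells are taken, so these values rest on few cells. Removing cells of other types took their markers from 795 to 754 CPM in tissue replicate 1 and from 118 to 99.6 in assembloid epithelial replicate 1. Some enteroendocrine cells may thus have been left out. In replicate 2 the markers went from 878 to 877 in tissue and from 259 to 266 in the assembloid epithelium. Jun was at 1939 and 2234 CPM, Fos at 1783 and 1819, Egr1 at 1094 and 1418, Fosb at 573 and 1227 and Atf3 at 838 and 1112 in tissue. In assembloid enteroendocrine-like cells Fos was at 284 and 322 CPM, Jun at 276 and 308, Egr1 at 125 and 88.1, Fosb at 22.7 and 43.3 and Atf3 at 197 and 109.

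Against cycling cells of tissue, 8 of the 9 genes were higher in enteroendocrine-like cells, where 36.0% of all genes were called (15.3% higher, 20.7% lower). Egr1 led with 1.71 ± 0.17 (adjusted p = 2.19e-08), followed by Fosb (1.06), Fos (0.92), Junb (0.92), Atf3 (0.82), Jund (0.74), Jun (0.70) and Ier2 (0.43), and Klf6 did not pass (0.33, adjusted p = 0.081). In assembloids none was higher, and Atf3 (−0.90), Ier2 (−0.83), Junb (−0.64) and Jund (−0.44) were lower (26.8% of all genes called, 15.4% lower), the other 5 lying between −0.51 for Fosb and 0.14 for Fos. The difference, assembloids less tissue, was called for 8 of the 9 with 8.59% of all genes called (3.55% lower), from −2.01 ± 0.28 for Egr1 (adjusted p = 3.81e-05) and −1.72 ± 0.23 for Atf3 (adjusted p = 2.32e-05) to −0.79 for Fos, and Klf6 had −0.59 (adjusted p = 0.0867). The median depth of these cells was 8433 and 6261 UMIs in tissue and 1921 and 12259 in assembloids. These contrasts were fitted by edgeR under TMM only. No fit on library totals, under DESeq2, with doubled gate limits or with at most 5% mitochondrial UMIs was made for them.

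The assembloid stroma was mostly fibroblasts, among which trophocyte-like cells (Cd34, Cd81, Grem1, Rspo3; 1589 and 1824 cells) served as reference. Cycling stromal cells had less Fos (−0.67), Ier2 (−0.51), Junb (−0.49), Egr1 (−0.48), Jund (−0.48) and Fosb (−0.48) and more Klf6 (0.44), where 34.3% of 14495 genes were called (18.4% higher, 15.9% lower). Atf3 (−0.68, adjusted p = 0.198) and Jun (−0.43, adjusted p = 0.0702) did not pass. Both were called lower without the filter on low counts (adjusted p = 2.84e-05 and 0.00513) and with at most 5% mitochondrial UMIs (adjusted p = 0.0128 and 0.00249). Telocyte-like cells, the subepithelial fibroblasts that express Foxl1 and BMP ligands, had less Egr1 (−0.54, adjusted p = 0.0118) and Junb (−0.38, adjusted p = 0.0294), where 31.9% were called (13.4% lower), and the other 7 lay between −0.56 for Atf3 and 0.37 for Klf6. Of these Fos and Atf3 were called lower without the filter on low counts (adjusted p = 0.000826 and 0.00454) and with at most 5% mitochondrial UMIs (adjusted p = 0.0276 and 0.0304). Klf6 was called higher without the filter (0.36, adjusted p = 0.0233), and Jun and Ier2 lower with at most 5% mitochondrial UMIs (adjusted p = 0.0364 and 0.0493). Fos passed on library totals (−0.51, adjusted p = 0.0472). With doubled gate limits Ier2 was called lower (−0.43, adjusted p = 0.0384) and Atf3 changed sign (0.56, adjusted p = 0.412). Under DESeq2 the cycling calls of Fosb (−0.52, adjusted p = 0.0878) and Klf6 (0.40, adjusted p = 0.071) were lost. Leaving out a stromal library gives no test here, since no degrees of freedom remain.

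The enteric nervous system cells of the stroma had another profile. Atf3, which nerve injury induces in neurons and Schwann cells, was at 460.2 and 327 CPM in neuron-like cells (69 and 102 cells, led by Gal, Vip, Cartpt and Elavl4) and at 13.5 and 47.5 in trophocyte-like cells. The log2 fold change was 3.69 ± 0.41 (adjusted p = 4.35e-05), where 39.1% of all genes were called (20.6% higher, 18.5% lower). Klf6 (0.68) and Jund (0.62) were also higher, Fosb (−1.74), Junb (−1.28), Egr1 (−0.84) and Ier2 (−0.60) were lower, and Fos (−0.39) and Jun (0.21) did not pass. All of these calls held on library totals. Fos was called lower without the filter on low counts (−0.43, adjusted p = 0.00521) and Jun higher with doubled gate limits (0.545, adjusted p = 0.0265). The median mitochondrial share was 5.51% and 7.4% in neuron-like and 4.44% and 4.49% in trophocyte-like cells, and with at most 5% mitochondrial UMIs too few neuron-like cells remained (32 and 16) for the contrast to be fitted.

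Glia-like cells were only 16 and 23, with Gfap, Ngfr, Cdh19 and Atf3 itself among the 10 leading genes, so they are described without a test. Atf3 was at 2100.3 and 2626 CPM (224 and 421 UMIs) and Jun at 2175 and 1815 (232 and 291 UMIs), that is 155 and 55.3 times and 6.45 and 2.51 times the trophocyte-like level of the same library. Klf6 was at 291 and 443 CPM and Fos at 563 and 524. Fosb gave 0 UMIs in both libraries, which allows up to 28.1 and 18.7 CPM by counting error alone, and Egr1 was at 28.1 and 56.2 CPM (3 and 9 UMIs), below the trophocyte-like 314 and 657.

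Over 36 sums of a library and class the 9 genes fell into neighbourhoods of likeness, given as a description because sums of a library share its preparation and depth. Pearson's r of log2 CPM was 0.962 for Fos and Jun, 0.915 for Fosb and Jun, 0.909 for Fos and Fosb and 0.869 for Atf3 and Klf6, and it was −0.08 for Atf3 and Junb, −0.036 for Klf6 and Junb and 0.1 for Egr1 and Klf6. Among 3920 genes outside the 9, those most like Fos were Btg2 (0.971), Dusp1 (0.962), Rhob (0.927), Zfp36 (0.906) and Chpt1 (0.876). The same 5 led for Jun (Btg2 0.938, Dusp1 0.93, Rhob 0.898, Chpt1 0.897, Zfp36 0.876). Egr1 was most like Nr4a1 (0.901), Zfp36 (0.89), Stat3 (0.878), Prkacb (0.846) and Btg2 (0.835), and Klf6 most like Itprid2 (0.926), Dmbt1 (0.919), Mapk6 (0.915), Trib1 (0.912) and Sertad2 (0.91).

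The other genes of the response were grouped into lists by function. Their counts are to be read against all genes, of which 26.4% were called higher and 23.3% lower in assembloids less tissue, 24.2% and 22.9% in organoids less tissue, and 38.6% and 34.3% in the stroma less the assembloid epithelium. Of 28 other immediate early genes tested, 12 were lower and 6 higher in assembloids than in tissue (median −0.178 against 0.027 for all genes), with Klf2 (−3.68) and Nr4a2 (−2.06) lowest and Ier3 (4.33) and Nfkbia (3.0) highest. In organoids against tissue 18 were lower and 5 higher (median −1.672 against 0.06), Klf2 (−6.48) and the MAP kinase phosphatase Dusp1 (−4.52) at the one end and Ier3 (3.63) and Myc (2.49) at the other. In the stroma against the assembloid epithelium 14 were higher and 7 lower (median 0.634 against 0.142), led by Cebpd (6.26) and Socs3 (5.55), with Klf4 (−2.46) and Plk3 (−1.85) lowest.

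The shorter lists are read against the same shares of all genes, and in the epithelial comparisons a count of 3 of 12 higher lies near them. Among 12 other AP-1 and related bZIP genes, 4 were higher and 4 lower in assembloids than in tissue, 2 and 4 in organoids than in tissue, and 9 and 2 in the stroma than in the assembloid epithelium, where Maf (2.44) was among the higher ones. Fosl2, a further Fos partner of Jun, was lower in organoids than in tissue (−1.03). Of 9 other Klf genes none was higher and 4 were lower in assembloids than in tissue, and 1 was higher and 7 lower in organoids, with Klf12 lowest in both (−4.81 and −5.82), while 3 were higher and 3 lower in the stroma. Of 12 ERK feedback genes 3 were higher and 1 lower in assembloids than in tissue (Dusp4 3.74, Etv5 −1.63), 3 and 4 in organoids (Phlda1 1.82, Dusp5 −3.25), and 7 and 3 in the stroma (Spred1 2.37, Dusp5 −2.23). Of 11 upstream kinases and ETS or CREB factors, 2, 1 and 5 were higher and 1, 2 and 2 lower in the 3 comparisons, with Elk3, a ternary complex factor, highest in each (2.41, 3.16 and 1.99).

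Measures of handling and stress did not share one order of the groups. The inducible chaperone Hspa1a was at 207 and 257 CPM in tissue, 355 and 881 in the stroma, 146 and 224 in the assembloid epithelium and 3.11 and 3.52 in the organoids, the group released with TrypLE alone. Its log2 fold change between organoids and tissue was −5.90, and that of Hspa1b −3.59. Hspa1a was thus lowest in the organoids, where the sum of the 9 genes was lowest, but highest in the stroma and not in tissue. The 13 heat shock genes summed in the opposite order among the epithelial groups, to 5099 and 5755 CPM in tissue, 6945 and 7625 in the assembloid epithelium and 9966 and 7755 in organoids. Of them 3 were higher and 1 lower in assembloids than in tissue, 5 and 6 in organoids than in tissue, and 4 and 0 in the stroma than in the assembloid epithelium, where 26.4% and 23.3%, 24.2% and 22.9%, and 38.6% and 34.3% of all genes were called higher and lower. Between organoids and the assembloid epithelium 1 of the 13 was higher and 7 lower in organoids (24.4% and 28.5% of all genes). The median log2 fold change of the 13 was 0.499 in assembloids less tissue, −0.47 in organoids less tissue and −0.97 in organoids less assembloids. That of all genes was 0.027, 0.06 and −0.009. For the organoids the sum and the median gene thus differed in direction. Within cycling cells 8 of the 13 were higher and 1 lower in assembloids than in tissue (22.5% and 15.2% of all genes). Within goblet-like cells it was 5 and 1 (25.1% and 22.3%). In cycling cells of organoids 4 were higher and 6 lower than in tissue (19.8% and 16.2%), and 1 and 7 than in assembloids (20.3% and 26.4%). The counts in colonocyte-like and stem-like cells are given above. The part of the heat shock genes in the differences of the 9 genes was not tested.

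The summed level of the 9 genes also differed with the mitochondrial share of the barcodes. As CPM of the non-mitochondrial UMIs it was 3836 in tissue replicate 1 barcodes with up to 5% mitochondrial UMIs and 4664 in those above 10% and up to 20%, and 4692 and 5668 in replicate 2, and above 20% it was back at 3886 and 4979. In organoids it was 891 and 663 in the lowest class of mitochondrial share and 1669 and 1229 above 20%. In barcodes with up to 5% mitochondrial UMIs the sum was 3836 and 4692 in tissue, 1605 and 2044 in the assembloid epithelium and 891 and 663 in organoids. The part of the mitochondrial share in the group differences was not tested beyond the fits to cells with at most 5%.

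**Figure D4:**
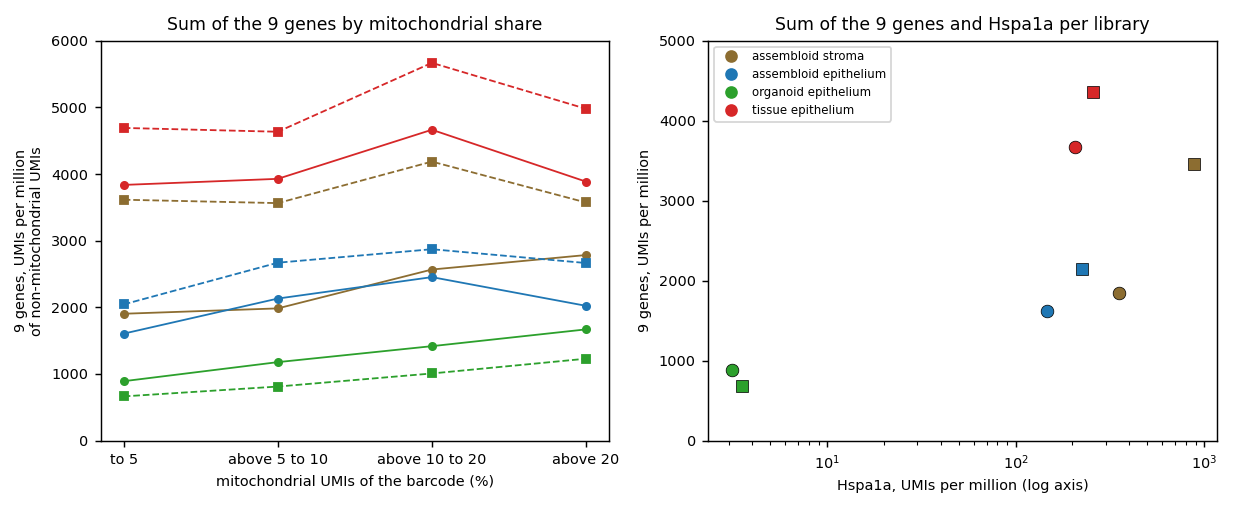
Left, summed level of the 9 genes in CPM of the non-mitochondrial UMIs by mitochondrial share of the barcodes, 1 line per library (solid with circles, replicate 1; dashed with squares, replicate 2); right, summed level of the 9 genes against Hspa1a (log axis) in the 8 libraries. Organoid libraries lie at 3.11 and 3.52 CPM of Hspa1a, and the tissue libraries lie highest for the 9 genes at every mitochondrial share.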

How the data were processed

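The deposited files were UMI count matrices that the authors made with Cell Ranger, version 6 on mm10 per the labels. The headers name 6.0.1 for the stromal and 7.1.0 for the epithelial libraries, and the setting for intronic reads is not given in the sources used here. The limits of the study were applied to barcodes, 500 detected genes or more and no more than 10% mitochondrial UMIs. These limits left more cells of the assembloid epithelium and fewer of the tissue than the study counts.

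Cells were gated into classes by summed shares of marker genes (at least 3 markers detected), with limits set after the marker levels were seen. Cells of other types were left out of the library sums, and no doublet caller was run. Counts were summed per library, or per library and class (at least 50 cells in both libraries), and tested with edgeR 4.0.16 (filterByExpr, TMM, quasi-likelihood test, two-sided) in R 4.3.3. Benjamini-Hochberg adjustment ran over all genes tested, and 0.05 was the threshold. The 6 epithelial libraries entered one fit, all 8 the fit of stroma against epithelium, fits between classes of a group had the library as a block, and fits of one class between groups had no block. Levels are CPM over the kept cells. Python 3.11.15 was used for the rest, and DESeq2 1.42.0 as an alternative.

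The 9 genes, the lists and the tests were chosen with earlier results of these data known. All 9 genes were tested in every comparison, and values that did not pass are in part given as a range. From each of 6 lists the 2 highest and 2 lowest genes past the threshold could be named, if their log2 CPM averaged 3 or more, and for likeness the 5 genes with the highest correlation and an average log2 CPM of 5 or more. Scaling by library totals was added after the data were seen. Some genes that the naming rule selects are not reported here.

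In each simulated set 100 genes were changed 2-fold and 100 4-fold. In simulated data for assembloid against tissue sums (19185 genes), 17% of 2-fold and 77% of 4-fold changes were called, and 0.02% of unchanged genes. For stroma against epithelium (20566 genes) it was 4%, 65% and 0.05%, and for neuron-like against trophocyte-like cells (14495 genes) 59%, 85% and 0.06%. In the real data far more genes were called, 49.7% in assembloid less tissue. The adjustment over all genes depends on that share, so the simulated shares need not hold there. The 2 libraries of each group differed by a chi-square of 22.66 to 371.74 per gene, more than sampling noise, so none was counted as a duplicate.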

Additional observations from a re-analysis of the deposited data

Results flagged for a closer look

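Contrasts between classes of the same libraries differed between assembloid and tissue epithelium by edgeR's test of the difference itself for 7 values in the colonocyte-like and goblet-like classes and for 8 in the enteroendocrine-like class, which are given as values without an explanation. For colonocyte-like less cycling cells the difference (assembloid less tissue, log2) was 1.63 ± 0.19 for Atf3 (adjusted p = 9.31e-06), 1.02 ± 0.23 for Egr1 (adjusted p = 0.0044), 0.79 ± 0.23 for Jun (adjusted p = 0.0232) and 0.61 ± 0.19 for Fos (adjusted p = 0.0393). For goblet-like less cycling cells it was 1.25 ± 0.19 for Atf3 (adjusted p = 0.00031), 1.02 ± 0.19 for Fos (adjusted p = 0.00212) and 0.75 ± 0.18 for Klf6 (adjusted p = 0.0115). For enteroendocrine-like less cycling cells, which enter only with classes of at least 20 cells, it had the opposite sign, at −2.01 for Egr1, −1.72 for Atf3, −1.56 for Fosb, −1.56 for Junb, −1.26 for Ier2, −1.18 for Jund, −1.03 for Jun and −0.79 for Fos (adjusted p = 2.32e-05 to 0.0161). The 7 colonocyte-like and goblet-like values were called on library totals too (1.68, 1.07, 0.84 and 0.66 for the first and 1.25, 1.03 and 0.75 for the second set) and under DESeq2. With a library left out in turn, the calls of Atf3 held and those of Fos, Jun, Egr1 and Klf6 did not always, as given above. The cycling cells of tissue, on which each of these values rests, numbered 114 and 73, with a median of 16281 and 13042 UMIs, against 2928 and 833 in assembloids with 4702 and 14459. The part of cell number and depth was not tested.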

How the results depend on the processing

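Over all comparisons 2124 values of the 9 genes were recomputed under an alternative; 1845 kept their direction and their side of the threshold, 118 lost a call, 82 gained one and 79 changed sign. Whether the replicate numbers pair the libraries is not known. The correlation of same-numbered deviations was −0.065 for the assembloid compartments and 0.211, 0.321 and −0.236 for the pairs of epithelial groups. With 2 libraries per group these values cannot decide it. With the numbers as a replicate block the members called numbered 6, 8 and 7 in the epithelial library comparisons (with 9356, 8872 and 9959 of all genes). In stroma less epithelium they numbered 6, where Jun no longer passed (0.90, adjusted p = 0.0593). With the block 5, 8 and 7 were called in cycling, 7 in colonocyte-like, 7 in goblet-like and 9 in stem-like cells, with 5684, 5533, 7180, 7143, 6003 and 4054 of all genes. No value could be had for tissue class contrasts with doubled gates or at most 5% mitochondrial UMIs (too few cycling tissue cells) or for the stromal classes without a library (no residual degrees of freedom), and leaving out a library was not run for enteroendocrine-like cells. For enteroendocrine-like cells no fit was made on library totals, under DESeq2, with doubled gate limits or with at most 5% mitochondrial UMIs. Their values are not among the 2124. With all barcodes kept Klf6 no longer passed in assembloid less tissue (0.65, adjusted p = 0.111), nor with no cell left out by its markers (0.59, adjusted p = 0.0664). In simulated data of assembloid less tissue, with far fewer changed genes than were called in the real data, 17% of 2-fold changes were called. The share found in the real data is not known, and a value that did not pass was not shown to be equal.

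Signs that changed are given as the value under each alternative, and the cause was not tested. Under DESeq2 Ier2 was −0.038 in organoid less assembloid, Jund −0.12 in stroma less epithelium and −0.027 in organoid less assembloid cycling cells, Jun 0.11 in goblet-like less cycling assembloid cells and Egr1 0.12 in stem-like less cycling tissue cells. With at most 5% mitochondrial UMIs Ier2 was −0.0025 in organoid less assembloid and 0.037 in stem-like less cycling organoid cells, Jund −0.19 in stroma less epithelium and Jun 0.33 in goblet-like less cycling assembloid cells. With cells thinned to 2000 UMIs Ier2 was −0.071 in organoid less assembloid. Without the filter on low counts Jund was −0.14 in stroma less epithelium, Jun 0.033 in goblet-like less cycling assembloid cells, Egr1 0.018 in stem-like less cycling tissue cells, and Ier2 −0.080 in the stem-like difference and 0.015 in organoid less assembloid cycling cells. In the 4 assembloid libraries alone Jund was −0.15 in stroma less epithelium, where Fosb (0.97, adjusted p = 0.0863) and Jun (0.62, adjusted p = 0.196) did not pass. With doubled gate limits Jun was −0.10 in colonocyte-like and Fosb −0.59, Egr1 −0.034 and Klf6 −0.078 in goblet-like less cycling assembloid cells, Fosb 0.059 and Atf3 0.56 in telocyte-like less trophocyte-like cells, and Jund −0.11 in organoid less assembloid cycling and 0.056 in assembloid less tissue goblet-like cells. With classes of at least 20 cells Jun was 0.091 in goblet-like less cycling assembloid cells and Egr1 0.10 in stem-like less cycling tissue cells.

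On library totals Jund was −0.0093 in stroma less epithelium. Against cycling cells, colonocyte-like assembloid cells had Jun −0.22, Junb −0.12 and Ier2 −0.24, colonocyte-like tissue cells Fos −0.27 and Junb −0.029, goblet-like assembloid cells Fosb −0.14 and Ier2 −0.10, goblet-like tissue cells Junb −0.090, stem-like organoid cells Junb 0.098, Ier2 0.23 and Klf6 0.27, and stem-like tissue cells Fos 0.090, Egr1 0.28 and Ier2 0.015. Atf3 was 0.048 in the stem-like difference, and Junb −0.19 in cycling and −0.28 in colonocyte-like cells of assembloids less tissue. Library totals moved the calls higher and lower over all genes from 3408 and 5109 to 1974 and 7560 in colonocyte-like assembloid cells, from 3421 and 3612 to 1939 and 5856 in those of tissue, from 2302 and 3859 to 1413 and 5696 and from 1752 and 1879 to 984 and 3447 in the goblet-like cells, from 2534 and 3571 to 5321 and 1425 in stem-like organoid and from 958 and 2554 to 2233 and 1492 in stem-like tissue cells, and from 251 and 77 to 452 and 55 in the stem-like difference. Between assembloids and tissue they moved from 3476 and 2338 to 2107 and 4136 in cycling, from 3248 and 3111 to 1986 and 5635 in colonocyte-like and from 3029 and 2692 to 1478 and 5411 in goblet-like cells, from 3051 and 2502 to 1479 and 3794 between organoids and tissue in cycling cells, and from 2988 and 2681 to 3715 and 2135 in neuron-like cells. DESeq2 gave 3656 and 3547 in colonocyte-like and 2620 and 2579 in goblet-like assembloid cells, 1278 and 1942 in stem-like tissue cells, and 1112 and 769, 675 and 466, and 241 and 163 in the colonocyte-like, goblet-like and stem-like differences, against 838 and 1250, 518 and 723, and 251 and 77.

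The number of the 9 genes called moved to 3 with doubled gates and 3 on library totals in goblet-like assembloid cells (from 6), to 6 on library totals in goblet-like tissue cells (from 3) and to 5 in stem-like tissue cells (from 2), to 2 under DESeq2, 1 without the filter and 1 on library totals in the stem-like difference (from 0), and to 5 without the filter and 6 with at most 5% mitochondrial UMIs in telocyte-like cells (from 2). Genes called fell to 6287 and 6551 with thinned cells in assembloid less tissue and organoid less assembloid (from 9527 and 10142), to 4965 and 3120 with doubled gates in colonocyte-like and goblet-like less cycling assembloid cells (from 8517 and 6161) and to 3626 and 3581 in organoid less assembloid cycling and assembloid less tissue goblet-like cells (from 7206 and 5721). With at most 5% mitochondrial UMIs they were 3776 in stem-like less cycling organoid cells and 4204 in assembloid less tissue colonocyte-like cells (from 6105 and 6359), and on library totals 507 in the stem-like difference (from 328). For telocyte-like cells the number of all genes called without the filter or with at most 5% mitochondrial UMIs is not given here.

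With each library left out in turn, 1 to 6 of the 9 genes and 5248 to 10145 genes were called in assembloid less tissue, and 5171 to 9702 genes in organoid less tissue. Of the 9, 2 to 8 were called in colonocyte-like tissue cells (4093 to 7350 genes), 3 to 6 in goblet-like assembloid (3618 to 6138) and 0 to 4 in goblet-like tissue cells (1419 to 4139), 3 to 5 in stem-like organoid (3814 to 7237) and 0 to 4 in stem-like tissue cells (1130 to 3861), and 1 to 5, 1 to 4 and 0 to 2 in the colonocyte-like, goblet-like and stem-like differences (636 to 2201, 331 to 1340 and 50 to 747 genes). For assembloid less tissue 2 to 7 were called in colonocyte-like and 4 to 9 in goblet-like cells (3371 to 6169 genes) and 2183 to 6113 genes in cycling cells, for organoid less tissue 2223 to 6205 genes in cycling and 1498 to 5167 in stem-like cells, and for organoid less assembloid 3619 to 7507 genes in cycling cells. Atf3 ranged from −0.24 to 0.083 in assembloid less tissue, Jund from −0.90 to 0.34 and Ier2 from −0.57 to 0.49 in organoid less assembloid, and Jund from −0.20 to 0.47 in stroma less epithelium. Against cycling cells, Ier2 ranged from −0.14 to 0.61 in colonocyte-like assembloid cells, Fosb from −0.15 to 0.40 and Jun from −0.17 to 0.23 in goblet-like assembloid cells, Egr1 from −0.21 to 0.047 in goblet-like tissue cells, Fos from −0.12 to 0.23 in stem-like organoid cells, and Junb from −0.086 to 0.32, Egr1 from −0.11 to 0.094 and Klf6 from −0.012 to 0.29 in stem-like tissue cells. Fosb ranged from −0.069 to 0.35 in the colonocyte-like difference, and Jun from −0.18 to 0.47 and Ier2 from −0.21 to 0.11 in the stem-like difference. Between groups, Junb ranged from −0.043 to 0.62 in assembloid less tissue, Jund from −0.87 to 0.11 in organoid less tissue, and Jund from −0.47 to 0.51 and Ier2 from −0.56 to 0.33 in organoid less assembloid cycling cells, Egr1 from −0.51 to 0.41 in colonocyte-like and Jund from −0.45 to 0.31 in goblet-like cells of assembloids less tissue.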
